A study of Homo sapiens with 4 samples.

Results

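Transcript levels of the HOX genes were followed in hFOB1.19 cells through differentiation. The 39 HOX genes were every symbol of the mRNA table made of HOX, a cluster letter from A to D and a paralog number, out of 19610 symbols, and the values of their 80 transcripts, of 79798 in all, were summed for each symbol. hFOB1.19 is a human fetal osteoblast line that carries a temperature-sensitive form of the SV40 large T antigen, so that the cells divide at a permissive temperature and differentiate and mineralize at a raised one. RNA was taken before the change of temperature (day 0, labelled control) and on days 3, 6 and 9 of differentiation, with 1 library for each of these 4 groups. The same line and the same T antigen were in every group, and the raised temperature, the loss of T antigen activity and differentiation came together and cannot be told apart. With 1 library per day, no comparison has a replicate check, no test was made and no error or p-value is given. In such bulk samples, fewer cells with a transcript and less of it per cell cannot be told apart.

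HOX genes encode homeodomain transcription factors that give cells their place along the head-to-tail axis of the trunk and along the limbs. They lie in 4 clusters, HOXA on chromosome 7, HOXB on chromosome 17, HOXC on chromosome 12 and HOXD on chromosome 2. The paralog number gives a gene's place within its cluster, with low numbers used in the hindbrain and neck and high numbers in the lumbar, sacral and distal limb regions. Connective tissue and bone cells keep much of the HOX pattern of the site they came from, and most bone-forming cells of the face lack one.

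The unit was FPKM, fragments per kilobase of transcript at a fixed sequencing depth, which allows levels of different genes to be compared per length. No read count per gene is known from it, so no interval could be given. Changes are given as the log2 ratio to day 0 after 1 FPKM was added to each value, so that changes of weakly expressed genes come out too small. A gene was called higher or lower at a ratio of 2-fold or more (a log2 ratio of at least 1 or at most -1), provided that any library held it at 1 FPKM or more. Of all symbols, 12859 met this minimum, and 35 of the 39 HOX genes did. Over these 12859 genes the median log2 ratio on days 3, 6 and 9 was -0.08, -0.08 and -0.09. When the libraries were rescaled so that the median ratio to day 0 was 1, this median moved by 0.12 on each day, which is small beside a 2-fold change but decides the calls of genes close to the limit.

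The labelled cell type was checked on its defining markers. The collagen genes COL1A1 and COL1A2 and the matrix gene SPARC were the highest of 12 osteoblast markers, and RUNX2, the transcription factor that sets the osteoblast fate, was at an FPKM of 7.37, 26.2, 19.3 and 18.2 on days 0, 3, 6 and 9. The later osteoblast factor SP7 stayed at or below 0.274 and the osteocalcin gene BGLAP at or below 0.793, so these defining markers were nearly absent. Summed FPKM of the other marker lists ranged from 1.15 to 2.87 for 5 epithelial, from 0.674 to 1.58 for 4 endothelial, from 0.736 to 1.16 for 4 blood and from 0.296 to 1.42 for 4 muscle genes. The 4 cartilage and the 4 fat genes summed to between 1.58 and 5.64 and between 3.10 and 6.75, of which SOX9 and PPARG, 2 regulators that are not restricted to those tissues, made up most, and COL9A1 and ADIPOQ were listed at 0 in every library.

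The line had a broad HOX pattern that reached from low paralog numbers, with HOXB2 among the high members, to HOXC13 at the high-number end. In every library 31 or 32 of the 39 HOX genes had an FPKM of at least 1, and 16 reached 10 in any library. The highest member was HOXD11 on days 0 and 3 and HOXA9 on days 6 and 9. The median of the HOX genes past the minimum was 6.11, 5.77, 5.74 and 5.29 from day 0 to day 9. The median of all genes past the minimum lay higher, at 14.2, 13.4, 13.5 and 13.5, and 7 or 8 HOX genes in each library were above it.

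The lowest members lay at the ends of clusters and within HOXB. HOXB1, a hindbrain gene, was at 0.0205 on day 0 and listed at 0 on the other days. HOXD13 and HOXD12, which pattern the hand, foot and tail end, stayed between 0.128 and 0.411 and between 0 and 0.235. HOXB5 was between 0.336 and 0.669. These 4 genes were the members under an FPKM of 1 in every library. HOXA13, the hand and foot paralog of the HOXA cluster, was at 0.507, 1.29, 1.25 and 1.08 on days 0, 3, 6 and 9, just above the minimum on the later days. HOXC13, known for its part in hair and nails, stood apart from the other genes of number 13 at between 6.67 and 8.56 in the 4 libraries.

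**Figure D1:**
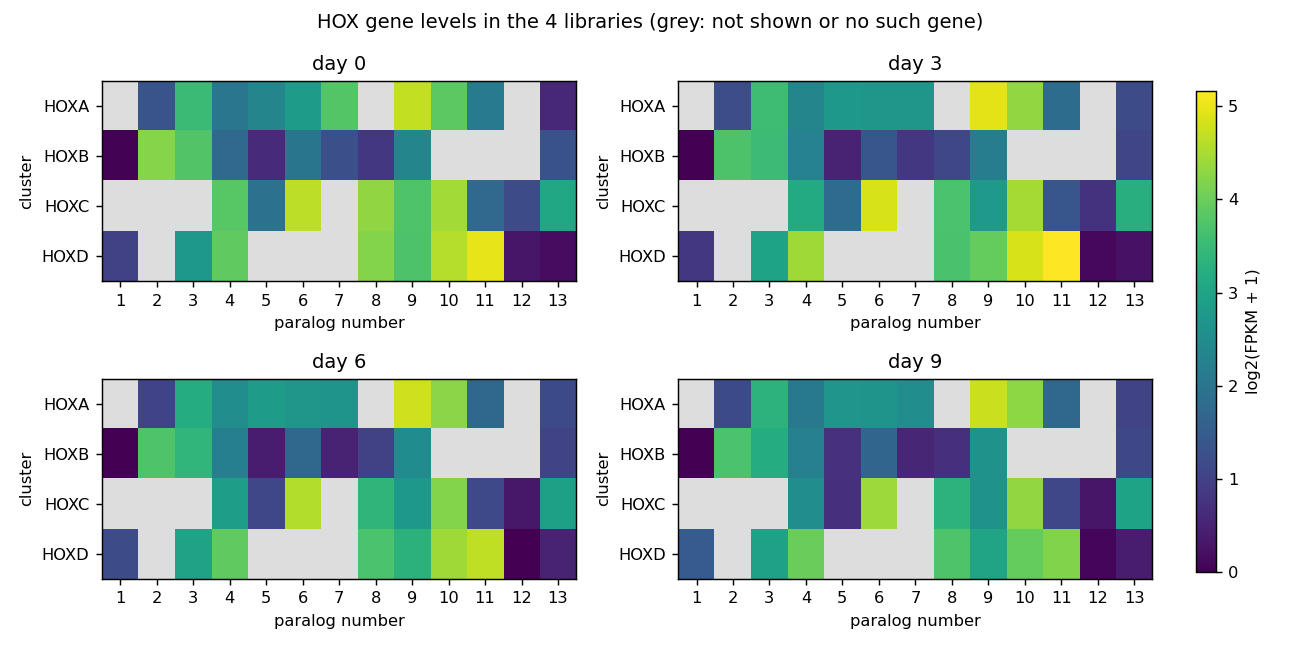
Level of each HOX gene, as log2(FPKM + 1) in colour, by cluster (rows) and paralog number (columns) in the 4 libraries, 1 per day. HOXD11, HOXA9, HOXC6 and HOXD10 are the brightest cells on day 0 and HOXB1, HOXB5, HOXD12 and HOXD13 the darkest.

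No HOX gene was 2-fold higher on any day, and 5 were 2-fold lower on at least 1 day. On day 3, HOXA7 was lower, which was 1 of 35 members (2.86%), beside 5.3% of all genes tested that were lower and 8.13% that were higher. On day 6, 2 members were lower (5.71%), HOXA7 among them, beside 6.42% of all genes lower and 9.01% higher. On day 9, HOXA7, HOXC4, HOXC5 and HOXC9 were lower, 11.4% of the members, beside 6.52% of all genes lower and 9.6% higher. The 3 comparisons share the day 0 library, so their results are not independent of each other. HOXA7 was the only member past the limit on all 3 days. The shares of all genes past the limit on any day and on all 3 days were not counted. The 5 members and HOXA7 therefore have no share beside them. After the rescaling HOXA7, HOXC4 and HOXC5 were past the limit on day 9 and no member was on days 3 and 6.

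At a smaller limit of 1.5-fold, the lower genes gathered in the HOXC and HOXD clusters by day 9. On day 3, 6 members were 1.5-fold lower (17.1%, beside 18.5% of all genes), and HOXA13 alone was higher (2.86%, beside 17.4%). On day 6, lower members numbered 9 (25.7%, beside 20.1%) and none was higher (beside 18%). On day 9, they numbered 12 (34.3%, beside 20.4%) and none was higher (beside 18.1%). Among these 12 were 6 of the 9 genes of the HOXC cluster (HOXC4, HOXC5, HOXC8, HOXC9, HOXC11 and HOXC12), 3 of 7 of HOXD (HOXD9, HOXD10 and HOXD11), HOXA7 and HOXB7. HOXB3, with a log2 ratio of -0.57 on day 9, lay just outside this limit, and HOXD10, with -0.65, was the nearest inside it.

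Over the 35 members the median log2 ratio on days 3, 6 and 9 was -0.12, -0.28 and -0.24, below the medians of all genes given above. After the rescaling it was -0.03, -0.18 and -0.12, beside 0.04, 0.04 and 0.03 for all genes. The members ranged from -1.03 to 0.60 on day 3, with extremes of -1.10 and 0.58 on day 6 and of -1.30 and 0.51 at the end. Of the 35, 17 were below day 0 on all 3 days and 7 above it on all 3 days (16 and 8 after the rescaling), and 11 had both signs. Of all genes, 46.0% were below and 36.1% above on all 3 days. The highest of the 4 libraries was day 0 for 17 members, day 3 for 14, day 6 for 2 and day 9 for 2. The highest library was not counted over all genes, so no share can be set beside these counts.

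**Figure D2:**
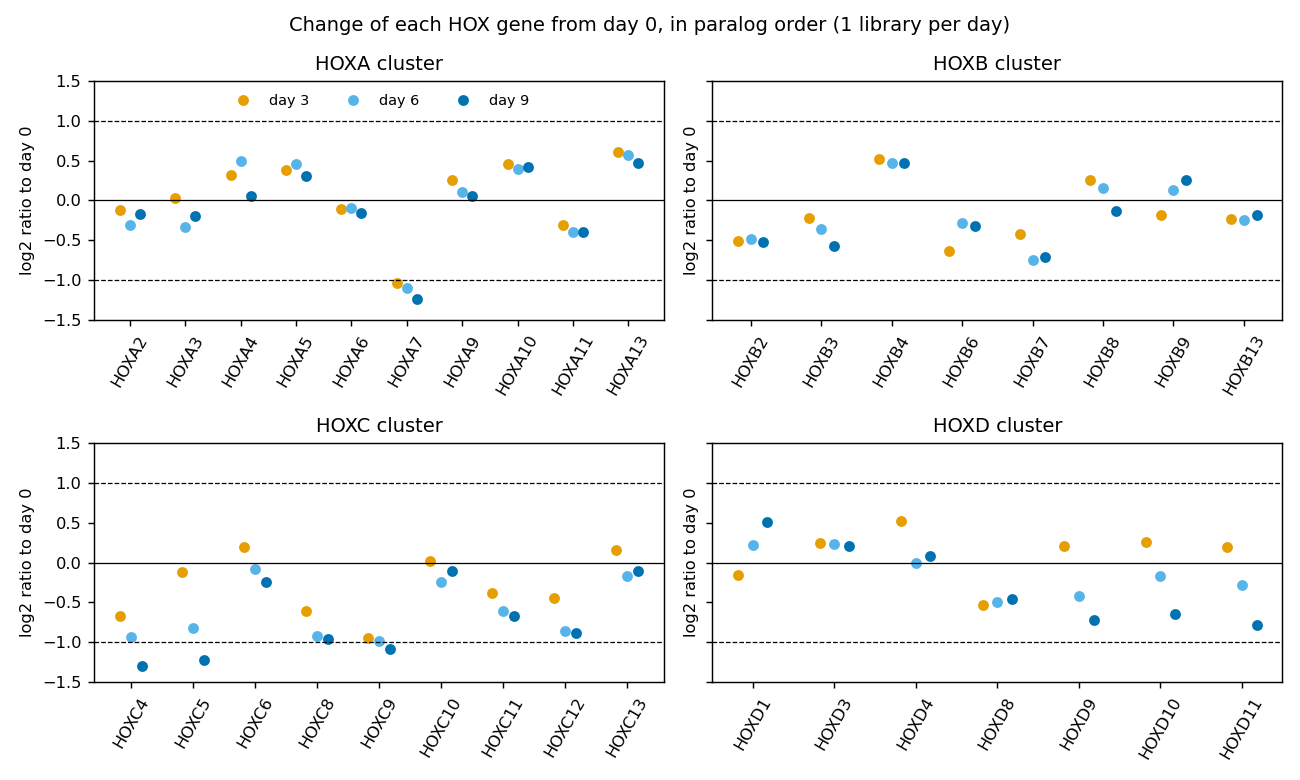
Log2 ratio to day 0, after 1 FPKM was added, of HOX genes past the minimum, in order of paralog number within each cluster, with dashed lines at the 2-fold limits. HOXA7 lies below the lower line on all 3 days, HOXC4, HOXC5 and HOXC9 do on day 9, and no point lies above the upper line.

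In the HOXA cluster, HOXA7 was lower while its neighbours were not. HOXA7, a trunk gene, was at an FPKM of 12.7, 5.67, 5.36 and 4.78 on days 0, 3, 6 and 9, with log2 ratios of -1.03, -1.10 and -1.24. The day 0 library was high and the 3 later libraries lay close together. Its neighbour HOXA6 stayed between 5.35 and 6.11, and HOXA9 on its other side was at 24.8, 29.7, 26.7 and 25.8 on days 0, 3, 6 and 9, with log2 ratios of 0.25, 0.10 and 0.05. HOXA9, a gene of the lower trunk and upper limb that is also known from leukaemia, was thus among the steadiest of the high members.

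HOXA10, which patterns the lumbar region and the upper limb segment and is also known in bone formation, was at 13.6 on day 0 and at 19.1, 18.2 and 18.5 on days 3, 6 and 9. Its log2 ratios were 0.46, 0.40 and 0.42, all within the limit. HOXA3, a gene of the neck and the pharyngeal arches, was at 10.5, 10.8, 8.13 and 9.06. Further members of this cluster lay lower. HOXA5 was between 4.202 and 6.13, HOXA4 between 3.10 and 4.77, HOXA11, the forearm and lower leg paralog of HOXD11, between 2.34 and 3.40, and HOXA2 between 1.05 and 1.53. HOXA13 had the highest log2 ratio of all members on days 3 and 6, 0.60 and 0.58, at levels close to the minimum.

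The HOXB cluster had its highest members at its low-number end. HOXB2, which acts in the hindbrain, was at an FPKM of 17.7 on day 0 and at 12.1, 12.3 and 12.0 on days 3, 6 and 9, with log2 ratios of -0.51, -0.49 and -0.52. HOXB3 was at 12.7, 10.7, 9.60 and 8.17, each library below the one before. The other genes were lower: HOXB9 between 3.54 and 5.16, HOXB4, known from blood stem cells, between 2.40 and 3.86, HOXB6 between 1.61 and 3.04, HOXB13 between 1.08 and 1.47, HOXB7 between 0.424 and 1.40 and HOXB8 between 0.638 and 1.14. HOXB4 and HOXB2 differed in sign, since HOXB4 had log2 ratios of 0.52, 0.47 and 0.48. No HOXB gene was past the 2-fold limit on any day.

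In the HOXC cluster all 9 genes were below day 0 on days 6 and 9 (8 and 7 of them after the rescaling), but not to the same degree. Of all genes, 54.8% and 55.1% were below day 0 on these days as deposited. HOXC4, a gene of the neck and upper thorax, was at 13.2, 7.89, 6.39 and 4.77 on days 0, 3, 6 and 9, with log2 ratios of -0.67, -0.94 and -1.30. HOXC5 was at 2.79, 2.48, 1.13 and 0.615, with log2 ratios of -0.12, -0.83 and -1.23. Both genes were lower in each library than in the one before, and HOXC4 had the lowest log2 ratio of any member on day 9. HOXC9, which acts in the thorax, was at 12.4, 5.93, 5.74 and 5.29, with log2 ratios of -0.95, -0.99 and -1.09. HOXC8, another thoracic gene, was at 18.7, 11.9, 9.37 and 9.11, and its log2 ratio on day 9 was -0.96, just inside the limit. HOXC9 and HOXC8 had the shape of HOXA7, high on day 0 and nearly level from day 6 on.

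The other high genes of the HOXC cluster changed less. HOXC6, which is used at the level of the forelimb and upper thorax, was at 24.1, 27.8, 22.7 and 20.2, with a log2 ratio of -0.24 on day 9. HOXC10, a lumbar and hindlimb gene, was at 20.7, 21.1, 17.4 and 19.1, with a log2 ratio of -0.11 on day 9. HOXC6 and HOXC10 each lie beside a gene with a larger decrease, HOXC6 between HOXC8 and HOXC4 and HOXC10 next to HOXC9 among the coding genes in the RefSeq order. HOXC11 was between 1.14 and 2.39 and HOXC12 between 0.242 and 1.29, and both had their highest value on day 0. Since transcripts of HOXC4, HOXC5 and HOXC6 share sequence, the way fragments were divided among them is uncertain.

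In the HOXD cluster, HOXD9, HOXD10 and HOXD11 had their highest value on day 3 and were then lower. HOXD11, which patterns the forearm and lower leg, was at 30.2, 34.8, 24.6 and 17.1 on days 0, 3, 6 and 9. HOXD10 was at 23.2, 28.0, 20.6 and 14.4, and HOXD9 at 12.3, 14.3, 8.93 and 7.03. These 3 neighbours had the same order of libraries, with day 3 highest and day 9 lowest. The order was not particular to them, since HOXC6 had it too. HOXB8, at a low level, was also highest on day 3 and lowest on day 9. Their log2 ratios on day 9 were -0.79 for HOXD11, -0.65 for HOXD10 and -0.72 for HOXD9, none of them past the 2-fold limit. HOXD11 was above 72.8%, 78.8%, 69.1% and 57.5% of the genes past the minimum on days 0, 3, 6 and 9.

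Among the HOXD genes past the minimum, the day 9 log2 ratio was higher at the low-number end. It was 0.51 for HOXD1, 0.21 for HOXD3, 0.08 for HOXD4 and -0.46 for HOXD8, the gene next to HOXD9. HOXD12 and HOXD13, both under the minimum, had -0.21 and 0.23, above HOXD8 to HOXD11, and both break this order. HOXD10, with -0.65, also lay above HOXD9, with -0.72. HOXD1 was between 0.788 and 1.83 and HOXD3 between 5.73 and 6.99. HOXD4, a gene of the hindbrain and neck vertebrae, was at 13.97, 20.6, 13.9 and 14.8, with the day 3 library standing out, and HOXD8 was at 17.4, 11.7, 12.1 and 12.4, with the day 0 library standing out. HOXD8 thus had no day 3 maximum, in contrast to HOXD9, HOXD10 and HOXD11. The order was seen in 1 library per day and was noticed after the values were seen.

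**Figure D3:**
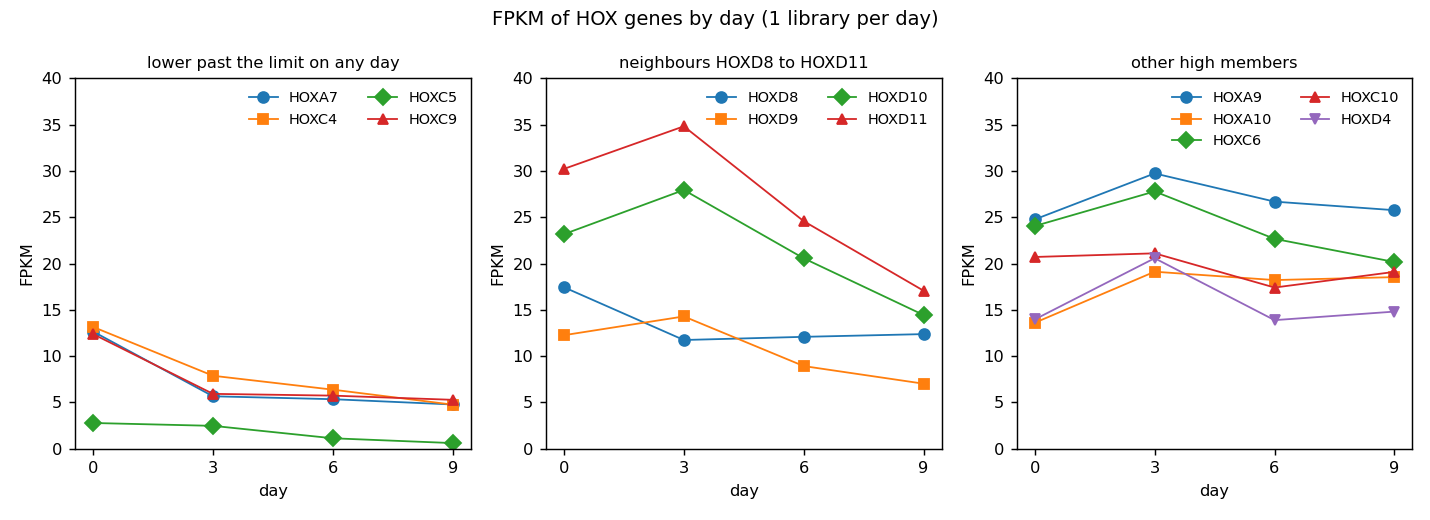
FPKM by day, 1 library per point, of 4 genes past the 2-fold limit on any day (left), of the neighbours HOXD8 to HOXD11 (middle) and of 5 other high members (right), on axes that start at 0. HOXA7, HOXC4 and HOXC9 are between 12.4 and 13.2 on day 0 and between 4.77 and 5.29 on day 9, and HOXD9, HOXD10 and HOXD11 are highest on day 3.

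Day 9 was also compared with day 3, a comparison chosen after the values were seen that leaves out the day 0 library. HOXC5 was 2-fold lower, 1 of 35 members (2.86%, beside 0.863% of all genes), and no member was 2-fold higher (beside 1.39%). At 1.5-fold, 5 members were lower (14.3%, beside 5% of all genes): HOXC4, HOXC5, HOXD9, HOXD10 and HOXD11, with log2 ratios of -0.62, -1.11, -0.93, -0.91 and -0.99. HOXD1 alone was 1.5-fold higher, with a log2 ratio of 0.66 (beside 4.92% of all genes). Of the 35 members 29 were below 0 in this comparison, where 49.99% of all genes were. HOXA7 and HOXC9, with -0.21 and -0.14, differed little between these days.

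Summed over each cluster, HOXC and HOXD held the most HOX transcript on day 0. The HOXD sum on days 0, 3, 6 and 9 was 104, 117, 88.7 and 74.7, and the HOXC sum was 103, 88.0, 70.9 and 67.4. The HOXA sum was 85.1, 88.1, 81.4 and 79.0, and the HOXB sum 44.1, 35.3, 35.4 and 34.3. The HOXC sum had the lowest log2 ratio on day 9, -0.61, followed by HOXD with -0.47 and HOXB with -0.36. That of HOXA was -0.11 on day 9 and -0.06 on day 6, and its sign turned under the rescaling, to 0.02 and 0.07. HOXA held 25.3% of the HOX FPKM on day 0 and 30.9% on day 9, and HOXC 30.6% and 26.4%.

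By paralog number, numbers 4 to 8 and 9 to 10 held most of the HOX transcript in every library. Genes of numbers 9 to 10, those of the lower trunk and upper limb, held 33.0% of the HOX FPKM on day 0 and 37.0%, 37.0% and 37.3% on days 3, 6 and 9. Genes of numbers 11 to 13 held 14.04%, 15.5%, 13.7% and 11.9%, and HOXD11 made up most of their sum in each library. Genes of numbers 1 to 3 held between 13.6% and 16.1% and those of numbers 4 to 8 between 33.9% and 37.0%. Of the single numbers, number 7, which is HOXA7 and HOXB7, had the lowest log2 ratio on day 9, -1.27, from a sum of 14.1 to 5.25. Number 10 was the highest by sum in each library, at 57.5, 68.2, 56.2 and 52.1. All HOX genes together summed to 336, 329, 276 and 255, which was 0.0545%, 0.0611%, 0.0506% and 0.0448% of the summed FPKM of all mRNA transcripts.

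**Figure D4:**
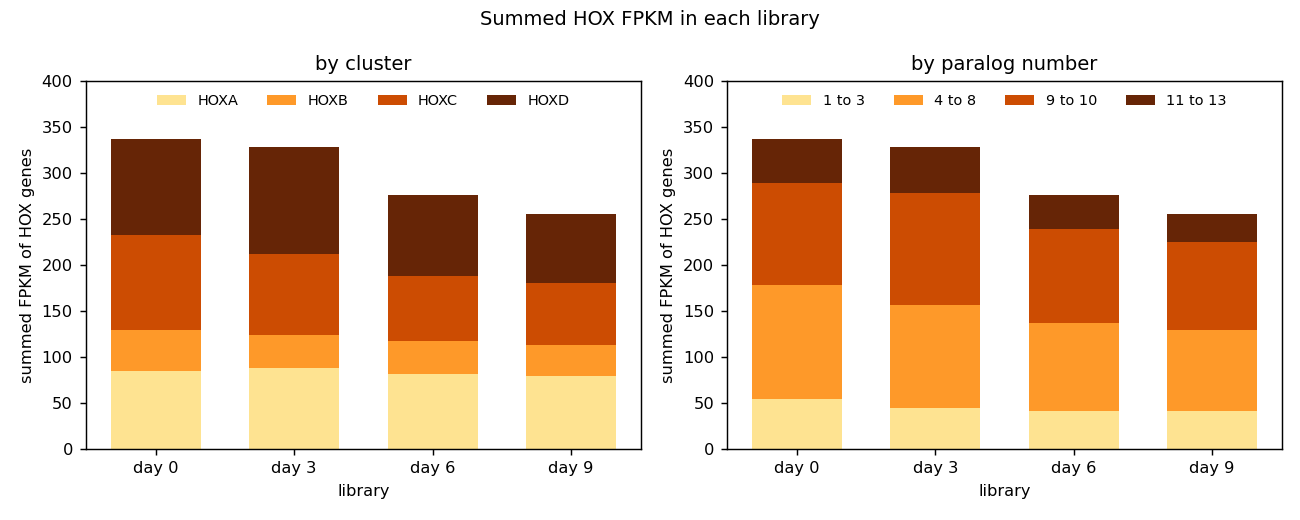
Summed FPKM of the 39 HOX genes in each library, 1 library per bar, divided by cluster (left) and by paralog number (right). The whole bar goes from 336 on day 0 to 255 on day 9, and the HOXC and HOXD parts shrink more than the HOXA part.

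Several HOX genes had more than 1 transcript in the table (21 of 39, up to 10 for HOXB3). In HOXA10 the transcripts moved apart. ENST00000283921 was at an FPKM of 4.64 on day 0 and at 12.6, 13.3 and 12.9 on days 3, 6 and 9, with log2 ratios of 1.27, 1.34 and 1.298. ENST00000613671 was at 4.64, 2.84, 2.19 and 1.67, and ENST00000396344 at 4.33, 3.65, 2.76 and 4.004. The share of ENST00000283921 in the gene was 34.1% on day 0 and between 66.1% and 72.8% later, so the transcript passed the limit while the gene did not. The read-through gene HOXA10-HOXA9 was at 0.373, 0.0354, 0.0652 and 0.0235. As these transcripts overlap, how the authors' program divided fragments among them is uncertain, and these genes were chosen after their values were seen.

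The HOXA9 transcripts ENST00000343483 and ENST00000396345 held 54.4% and 45.6% of the gene on day 0 and 59.3% and 40.7% on day 9. In HOXA7, ENST00000242159 was at 11.53, 5.67, 5.36 and 4.78, and ENST00000519842 was at 1.14 on day 0 and listed at 0 later. By ENST00000242159 alone the log2 ratios were -0.91 and -0.98 on days 3 and 6, inside the limit. The HOXC4 transcript ENST00000430889 was at 9.64, 6.25, 3.55 and 3.06, and ENST00000303406 at 3.52, 1.63, 2.84 and 1.71.

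Promoter sequences were taken from RefSeq (GRCh38.p14), which gave windows for 20 of the 39 HOX genes. HOXB1 was the only HOXB gene with a window, and HOXC4 and HOXC5 were the only HOXC genes. Motif shares of these 20 genes thus cover mostly HOXA and HOXD and not the whole family. The 120 bases before the start of 6 genes are shown. Those with a window that were 1.5-fold lower on day 9 are HOXA7, HOXC4 and HOXC5, HOXD10 and HOXD11. HOXA9 and HOXD8 are neighbours that were not past 1.5-fold. HOXB7, HOXC8, HOXC9, HOXC11, HOXC12 and HOXD9 were also 1.5-fold lower on day 9 but had no window. HOXC4 and HOXC5 have an identical window. Each reads 5′ to 3′ towards the start, and capitals mark an E-box, TCANGTG or its reverse CACNTGA, the kind of site read by basic helix-loop-helix leucine zipper proteins such as USF1. The stretches are chr7:27156676-27156795 (minus strand) for HOXA7, chr7:27165538-27165657 (minus strand) for HOXA9, chr12:54016768-54016887 (plus strand) for HOXC4 and HOXC5, chr2:176129585-176129704 (plus strand) for HOXD8, chr2:176116658-176116777 (plus strand) for HOXD10 and chr2:176107160-176107279 (plus strand) for HOXD11.
HOXA7: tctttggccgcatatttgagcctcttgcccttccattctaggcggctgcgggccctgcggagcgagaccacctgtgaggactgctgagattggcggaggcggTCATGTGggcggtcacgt
HOXA9: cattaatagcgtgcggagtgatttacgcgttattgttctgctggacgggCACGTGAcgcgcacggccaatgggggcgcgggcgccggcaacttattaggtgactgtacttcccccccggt
HOXC4: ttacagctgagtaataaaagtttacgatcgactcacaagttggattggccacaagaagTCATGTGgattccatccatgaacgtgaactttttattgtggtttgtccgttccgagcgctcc
HOXD8: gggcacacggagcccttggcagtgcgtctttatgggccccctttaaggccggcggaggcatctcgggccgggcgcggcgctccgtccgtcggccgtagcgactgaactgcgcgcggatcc
HOXD10: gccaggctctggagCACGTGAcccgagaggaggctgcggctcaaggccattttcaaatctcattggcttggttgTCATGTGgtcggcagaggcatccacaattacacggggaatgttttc
HOXD11: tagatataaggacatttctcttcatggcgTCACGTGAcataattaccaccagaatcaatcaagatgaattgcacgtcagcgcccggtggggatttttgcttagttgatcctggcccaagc

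The E-box was in the shown stretch of HOXA7, 18 bases before the start, in HOXA9 at 71, in HOXC4 and HOXC5 at 62 and in HOXD10 at 106 and 46. In HOXD11 the matches at 91 and 90 overlap on both strands. HOXD8 had none, and HOXA9, which stayed level, had one. HOXA2, HOXA3, HOXA4, HOXA11 and HOXD3, not shown, also had it, and none of them was 1.5-fold lower on day 9. The motif was chosen after the sequences were seen. In the 250 bases before the start, 11 of 20 HOX genes (55%) had it in any of their windows, against 12.97% of 27305 genes, and 11 of 26 distinct HOX windows (42.3%), against 10.7% of all windows. The 11 genes with it had a median mean FPKM of 7.12 and all were past the minimum. The 9 without it had a median of 1.23, and 6 of them were past the minimum, the others being HOXB1, HOXD12 and HOXD13.

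Other motifs were searched in the same 250 bases, on both strands. CCAAT was in 17 of 20 HOX genes (85%), all but HOXA11, HOXD11 and HOXD8, against 37.0% of all genes. The TATA box TATAAA was in 4 of 20 (20%), against 13.05%, the HOX core TAATTA in 2 of 20 (10%), against 5.37%, and TGATNNAT, a form of the site bound by PBX with HOX proteins, in 3 of 20 (15%), against 7.91%. The median GC content was 58.8% for HOX windows and 58% for all windows. HOX genes share ancestry and neighbours share sequence, so these windows are not independent. A match is a string of letters and not evidence of binding.

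Among the noncoding RNAs transcribed within the clusters, HOTAIRM1 was 2-fold lower on days 6 and 9. HOTAIRM1, an RNA of the HOXA cluster, was at an FPKM of 8.47, 3.76, 1.86 and 3.18 on days 0, 3, 6 and 9, with log2 ratios of -0.99, -1.73 and -1.18. Of 19 such RNAs listed, 12 were matched by symbol in the lncRNA table and 10 had an FPKM of at least 1. HOTAIRM1 was the only one past the limit, lower on days 6 and 9. On day 3 none was higher or lower, beside 14.3% and 5.35% of 2357 lncRNA genes. On day 6 none was higher and 1 lower, beside 15.5% and 5.81%, and on day 9 none was higher and 1 lower, beside 13.4% and 6.79%.

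HAGLR, which lies between HOXD3 and HOXD1, was at 5.45, 8.30, 10.7 and 10.3, with log2 ratios of 0.53, 0.86 and 0.81. HOXD1 beside it was also above day 0 on days 6 and 9. HOXB-AS1, between HOXB2 and HOXB3, was at 3.93, 8.29, 5.59 and 5.46, above day 0 on all 3 days while both neighbours were below it. HOTAIR, an RNA of the HOXC cluster known for its ties to polycomb proteins, was at 3.99, 5.98, 4.46 and 3.28, between HOXC12 and HOXC11. HOTAIR, HOXA-AS3, HOXA11-AS and HOXB-AS4 were highest on day 3 and lowest on day 9, as were HOXD9, HOXD10 and HOXD11. The share of all lncRNA genes with these extremes was not counted. The library kit was directional, but whether strand was used for the FPKM is not given in the sources used here, so values of antisense RNAs and the genes opposite them may be mixed.

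The TALE proteins PBX, MEIS and PKNOX bind DNA together with HOX proteins, and all 9 genes listed had an FPKM of at least 1. MEIS1 was at 15.9, 36.7, 22.8 and 13.2 on days 0, 3, 6 and 9. It was the only one past the limit, with a log2 ratio of 1.16 on day 3 (1 of 9, beside 8.13% of all genes higher). PBX3 was at 21.6, 24.2, 33.0 and 30.5, MEIS2 at 26.4, 29.8, 19.2 and 17.8, and PBX2 at 24.6, 21.7, 17.8 and 17.1. PBX4 was lower, at or below 1.72. PKNOX1 was between 7.76 and 9.47, MEIS3 between 3.92 and 6.16 and PKNOX2 between 2.23 and 5.60. MEIS1, MEIS2, MEIS3, PKNOX1 and PKNOX2 had day 3 as the highest and day 9 as the lowest library, as did HOXD9, HOXD10 and HOXD11, but in MEIS1 and MEIS3 day 6 lay above day 0. How many of all genes were highest on day 3 and lowest on day 9 was not counted. No share can therefore be set beside these genes. The median log2 ratio of the list was 0.17, -0.03 and -0.25.

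Polycomb complexes keep HOX genes silent and trithorax proteins keep them active, and 3 of these genes passed the limit on any day. The share of all genes past it on any day was not counted. On each single day between 5.3% and 6.52% of all genes were lower and between 8.13% and 9.6% higher. None of 11 genes of PRC2, which places the repressive mark H3K27me3, was past it on any day, and its median log2 ratio was -0.10, -0.02 and -0.16 (0.03, 0.11 and -0.03 after the rescaling). Its highest members were the histone binders RBBP4 (117, 100, 102 and 104) and RBBP7 (111, 106, 109 and 116) and PHF19 (63.6, 37.2, 38.2 and 37.8). Of 19 PRC1 genes, BMI1 was lower on day 3 (22.4, 10.7, 11.1 and 11.1, log2 ratio -1.01, a call lost after the rescaling), SCMH1 was lower on day 9 (16.0, 9.16, 7.65 and 5.80, log2 ratio -1.33), and CBX2 was higher on days 6 and 9 (1.86, 4.50, 5.02 and 5.11, log2 ratios 1.08 and 1.10). After the rescaling CBX2 was also past the limit on day 3 and YAF2 on day 9. PHC2, PCGF3 and PHC3 were the highest of that list by mean and stayed between 33.7 and 47.9. None of 13 trithorax and H3K27 demethylase genes was past the limit, with DPY30, KMT2A and KMT2D the highest. CBX2, BMI1 and SCMH1 were named for passing the limit.

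Retinoic acid sets the borders of HOX expression in the embryo. Of 12 genes of its list past the minimum, 2, 2 and 3 were higher on days 3, 6 and 9, beside 8.13%, 9.01% and 9.6% of all genes. On these days 0, 1 and 1 were lower, beside 5.3%, 6.42% and 6.52%. The 2 that were higher on all 3 days, ALDH1A3 and CYP26B1, act in its turnover. The share of all genes higher on all 3 days was not counted. ALDH1A3, which makes retinoic acid, was at 5.59, 13.9, 31.8 and 37.3, with log2 ratios of 1.18, 2.31 and 2.54. CYP26B1, which breaks it down, was at 0.201, 3.95, 2.54 and 3.43, with log2 ratios of 2.04, 1.56 and 1.88. The receptor gene RARB, which retinoic acid itself induces, was at 1.32, 1.85, 2.93 and 3.73, past the limit on day 9 with 1.02, and the binding protein gene CRABP2 was at 2.48, 0.945, 0.704 and 0.568, lower on days 6 and 9 with -1.03 and -1.15, of which day 6 was inside the limit after the rescaling. The receptors RARA and RXRA, high in this list with ALDH1A3, stayed between 14.4 and 21.4 and between 14.7 and 17.8. The list held 19 genes, and the CDX genes, which switch on HOX genes in the early trunk, were at or below 0.212. Whether these genes bear on the HOX levels was not tested.

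The limb and head factors were read beside the HOX pattern. TBX5, the forelimb factor, was at 8.84, 10.8, 7.64 and 6.84, while its hindlimb counterparts TBX4 and PITX1 stayed at or below 0.444 and 0.898. TBX3, GLI3 and TWIST1 were the highest of 26 limb genes, of which 15 had an FPKM of at least 1, and TBX3 was higher on day 9 (27.8, 33.6, 48.9 and 56.9, log2 ratio 1.01). MSX2 was higher on all 3 days (1.01, 6.97, 5.38 and 5.57) and PRRX2 lower on all 3 days (19.1, 6.95, 8.44 and 7.92), or on days 3 and 9 alone after the rescaling. As deposited, 1, 1 and 2 of these 15 genes were higher on days 3, 6 and 9, beside 8.13%, 9.01% and 9.6% of all genes. On each day 1 was lower, beside 5.3%, 6.42% and 6.52%. TBX15, known from the shoulder girdle, was level at between 16.3 and 18.0. The forelimb factor, HOXC6 and the genes of numbers 9 to 11 were present in the same libraries, and PITX1 and TBX4 were nearly absent. HOXC10, a lumbar and hindlimb gene, was also present, at 20.7, 21.1, 17.4 and 19.1. The limb of origin was not tested.

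Of 9 head factors, 4 had an FPKM of at least 1 and none was past the limit, beside the shares of all genes given above. ALX1, which acts in the bones of the face, was between 1.13 and 2.56, and OTX1 was at or below 1.10. OTX2 and RAX were listed at 0 in every library, and SIX3, SIX6 and EMX1 were at or below 0.755. TBX5, TBX4, PITX1, TBX15 and these pairs were set side by side after their values were seen.

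**Figure D5:**
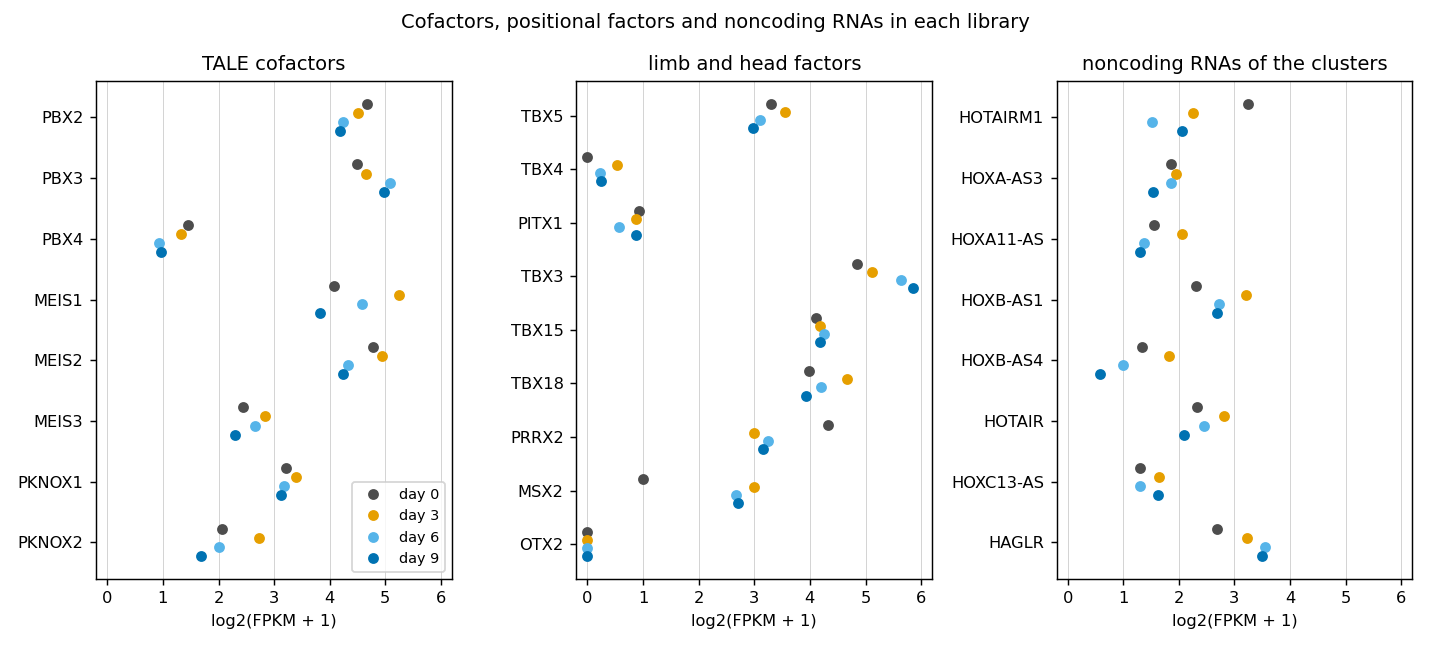
Level of TALE cofactors (left), limb and head factors (middle) and noncoding RNAs of the clusters (right) as log2(FPKM + 1), 1 point per library. MEIS1 is highest on day 3, TBX5 lies far above TBX4 and PITX1, OTX2 is at 0, and HOTAIRM1 is highest on day 0.

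Most of the genes that flank the clusters were above day 0. Of 15 flanking genes listed, 13 were matched and 9 had an FPKM of at least 1. Their median log2 ratio was 0.53, 0.73 and 0.61 on days 3, 6 and 9, beside -0.08, -0.08 and -0.09 for all genes. Of all genes, 55.1%, 54.8% and 55.1% were below day 0 on these days. Not every flanking gene was above it on each day, as CBX5 and MTX2 were below it on day 3. SKAP2, beside the HOXA cluster, was at 7.31, 12.2, 13.1 and 16.9 and was 2-fold higher on day 9, with 1.10 (1 of 9, beside 9.6% of all genes). After the rescaling CALCOCO1 was past the limit on days 6 and 9 and TTLL6 on day 6. CBX5, CALCOCO1 and MTX2 were the highest of them, CALCOCO1 at 24.7, 45.0, 46.7 and 49.99 and MTX2, beside HOXD, between 27.4 and 30.1. EVX1 and EVX2, which adjoin the high-number ends of HOXA and HOXD, were at or below 0.0512 and 0.0350.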

How the data were processed

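RNA of 4 libraries was depleted of ribosomal RNA and sequenced with a directional kit. The labels name RNase R, which digests linear RNA, for the mRNA libraries, and its effect on these values was not tested. The authors deposited FPKM per transcript for mRNAs and lncRNAs, and the methods name TopHat and Bowtie. The submitters' processing notes list Bowtie 0.12.2 and mm8, a mouse build. The human build and the program behind the FPKM are not given in the sources used here. Depth per gene is unknown.

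FPKM were summed per symbol, and log2 ratios were taken after 1 FPKM was added. The deposited comparison tables hold the authors' fold changes and were not used, nor were the circRNA files. With 1 library per day no test was made, and p-values are absent. Gene order came from RefSeq (GRCh38.p14).

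The members and lists were chosen with earlier results of these data known. Named are HOX genes that any library held at 10 FPKM or more or that were past 2-fold, the 2 highest of each cluster, and of other lists the genes past 2-fold on all 3 days, the 3 highest by mean and members of lists of 10 or fewer, which for markers are given as sums. Results for some genes are not reported here. Alternatives changed the added FPKM, the minimum, the scaling, the transcripts summed and the limit. Python 3.11.15, numpy 2.4.6, pandas 2.3.3 and matplotlib 3.10.9 were used.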

Additional observations from a re-analysis of the deposited data

How the results depend on the processing

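No paired analysis was possible because each day has 1 library. With 0.1 FPKM added in place of 1, 1 HOX gene was higher and 3 lower on day 3, 1 higher and 7 lower on day 6, 9 lower on day 9, and 1 higher and 4 lower for day 9 against day 3. This setting weighs genes of low FPKM more, and took HOXA13 past the limit on days 3 and 6 (1.20 and 1.15) and HOXC12 and HOXC5 to -2.03 and -2.01 on day 9. No share of all genes was taken with 0.1 FPKM added, at either limit, so counts at this setting cannot be set against all genes. With rescaled FPKM, 0 were lower on day 3 and 0 on day 6, and of all genes called on day 3 72.1% were higher, against 60.6% as deposited. With the transcript of the highest mean, 1 was higher on days 3, 6 and 9 (HOXA10) and 0 lower on day 3. At a limit of 1.5-fold, 1 was higher and 6 lower on day 3, 9 lower on day 6, 12 lower on day 9, and 1 higher and 5 lower for day 9 against day 3. At 1.5-fold with 0.1 FPKM added, 2 were higher and 8 lower on day 3, 3 higher and 9 lower on day 6, 3 higher and 13 lower on day 9, and 1 higher and 8 lower for day 9 against day 3. With an FPKM of at least 1 required in every library, 0 were lower for day 9 against day 3, since HOXC5 was then left out. As linear ratios, HOX medians, cluster sums, paralog shares (also without HOXA9) and the number of HOX genes at 1 FPKM moved by less than 1.5 times under every setting run on them (the median log2 ratio went from -0.12, -0.28 and -0.24 to -0.03, -0.18 and -0.12 with rescaled FPKM), and with no minimum no count changed by more. Of 21 alternative values for members past the limit, 0 changed sign and 6 were within it. In the other direction, 19 alternative values were past the limit where the main setting was within it. The comparison of day 9 with day 3, the 1.5-fold limit with 0.1 FPKM added and the alternatives for single genes were chosen after seeing the data. Without read counts, no limit of detection can be given.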
